A study of Homo sapiens with 8 samples.

Results

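A set of 10 genes that store, carry, release or sense iron were followed across the 8 RNA sequencing libraries of a human hepatic cell line study. They were FTL, FTH1, NCOA4, TFRC, TFR2, TF, SLC11A2, SLC40A1, ACO1 and IREB2. The set was taken by name from the protein-coding rows of the gene table, and makes up 10 of 19951 protein-coding genes and of 58735 annotated genes in all. A filter of at least 1 FPKM (reads or fragments per kilobase of a gene, relative to library size) in at least 2 libraries left 8 of them to test. TFR2 and TF did not reach that level in any library. The other 8 exceeded 1 FPKM in every library.

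HepaRG is a human hepatic progenitor line able to form cells resembling hepatocytes or bile duct cells, and every library came from it or from its edited derivative. M14A printed (2 libraries) was M14A, the derivative transfected with FoxM1 and HNF4A according to its genotype label, printed in the bioink GP and harvested after 4 h. M14A plate (3 libraries) was the same derivative grown in culture flasks without printing. HepaRG plate (3 libraries) was the unedited line, labelled WT, also grown in flasks. Printed material was snap-frozen and crushed to release RNA, whereas cells from flasks were lifted and spun down, so printing and the way of collection cannot be told apart. The labels do not say whether M14A is 1 clone, what drives the introduced genes, or whether replicates came from separate cultures, so a p-value here reflects the spread among libraries only, and that spread may be technical.

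Cells hold iron safely inside ferritin, a hollow shell built of light chains (FTL) and heavy chains (FTH1). Iron bound to the plasma protein transferrin (TF) enters through the transferrin receptor (TFRC), crosses the endosome membrane through the transporter SLC11A2, and leaves the cell through ferroportin (SLC40A1). A pair of iron regulatory proteins, IRP1 (encoded by ACO1) and IRP2 (encoded by IREB2), bind hairpins called iron-responsive elements in messenger RNA when iron is scarce. Binding in the leader of a message, as in ferritin, blocks its translation, and binding in the trailer, as in TFRC, protects the message from decay. The liver is the main iron store of the body and makes both transferrin and the iron hormone hepcidin. RNA levels alone therefore do not give the ferritin protein level.

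The hairpins are shown because they tie these genes into 1 circuit. The motif, a C, 5 bases of any kind, the letters CAGTG and 6 further bases, was searched on the sense strand of GENCODE 29 transcripts (GRCh38), with the 5 bases on each side of the 6-base loop required to pair and G-T pairs allowed. Each element is given as 28 bases, 5′ to 3′ in transcript direction, with the loop in capitals.
FTL 5′ UTR, chr19:48965336-48965363, plus strand: tcttgcttcaaCAGTGTttggacggaac
FTH1 5′ UTR, chr11:61967574-61967601, minus strand: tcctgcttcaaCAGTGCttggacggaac
SLC40A1 5′ UTR, chr2:189580661-189580688, minus strand: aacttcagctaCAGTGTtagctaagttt
TFRC 3′ UTR, chr3:196050979-196051006, minus strand: attatcggaagCAGTGCcttccataatt
TFRC 3′ UTR, chr3:196050575-196050602, minus strand: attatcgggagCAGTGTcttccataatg
TFRC 3′ UTR, chr3:196050510-196050537, minus strand: tgtatcggagaCAGTGAtctccatatgt
TFRC 3′ UTR, chr3:196050463-196050490, minus strand: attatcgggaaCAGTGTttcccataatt

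The ferritin elements were identical at 26 of 28 positions, while each matched the SLC40A1 element at 13 of 28. A match to the motif was present in the 5′ UTR of 36 of 18661 genes (0.193%) and in the 3′ UTR of 132 of 19059 genes (0.693%). Among the iron genes, 3 of 10 had one in the 5′ UTR and 2 of 10 in the 3′ UTR. TFRC had 4 matches in its 3′ UTR, and 1 transcript of TF had a further one. No match with its paired stem was found in the annotated UTRs of SLC11A2, NCOA4, ACO1, IREB2 or TFR2, nor in those of EPAS1, PFN2, HIF1A or CDC42BPA, which belong to the list of messages known for such elements, so a miss says only that this strict pattern is not there. A match is a description of the letters and was not tested for binding.

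Each library held 15632154 to 19148262 recovered reads. Mitochondrially encoded genes took 13.3 and 16.4% of reads in printed cells, 8.21 to 9.72% in M14A plate and 6.91 to 7.25% in HepaRG plate. M14A plate library 1 stood apart, with Pearson correlations across genes of 0.957 and 0.948 with libraries 2 and 3 of its group, which correlated at 0.988. Calls of iron genes and counts over the pathway lists that it changes are therefore also given without it. HNF4A, one of the genes named in the genotype label, stood at 17.1 and 13.6 FPKM in printed cells, at 37.9, 43.1 and 41.7 FPKM in M14A plate, and at 5.67, 6.24 and 6.50 FPKM in HepaRG plate. FOXM1, the other, averaged 10.1 ± 0.0594 FPKM in printed cells (SD, n = 2), 10.8 ± 2.06 in M14A plate and 13.8 ± 0.991 in HepaRG plate (SD, n = 3 each), so the label was not matched by a higher FOXM1 level. The summed level of 7 hepatocyte markers was 913 to 1076 FPKM in printed cells, 497 to 853 FPKM in M14A plate and 135 to 154 FPKM in HepaRG plate. These sums are on FPKM as deposited, whose totals were highest in the printed libraries.

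Below, fold changes are log2 fold changes on the log2(FPKM + 1) scale, with the SE and 95% interval of limma, and calls are made where the adjusted p (Benjamini-Hochberg, over 14349 genes) is below 0.05. Between the flask-grown lines, M14A minus HepaRG, 2 of the 8 tested iron genes were called higher and 3 lower, against 30.9% of all genes tested called in either direction (16.1% higher, 14.7% lower). Between printed and flask-grown M14A cells, 2 of 8 were called higher and 0 lower, against 33.2% of all genes (17.7% higher, 15.5% lower). Groups did not overlap for 5 of the 8 between the lines, against 53.0% of all genes, and for 2 of the 8 after printing, against 51.3%. The median fold change of the 8 genes was 0.10 between the lines and 0.02 after printing, and over all genes it was -0.04 and 0.01. Without M14A plate library 1, the counts were 4 higher and 3 lower between the lines, and 2 higher and 2 lower after printing, when 42.7% of all genes were called between the lines (20.3% higher, 22.4% lower) and 55.1% after printing (28.2% higher, 26.9% lower). At equal FPKM totals per library the median of all genes moved to -0.20 between the lines and to -0.51 after printing, and the share of all genes called was 37.8% (14.4% higher, 23.4% lower) and 49.6% (3.45% higher, 46.1% lower). Of the genes called, the higher share was then 38.02% against 52.3% between the lines and 6.96% against 53.3% after printing, and with mitochondrial genes left out of the totals it was 13.3% after printing. Both comparisons share the M14A plate libraries.

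**Figure D1:**
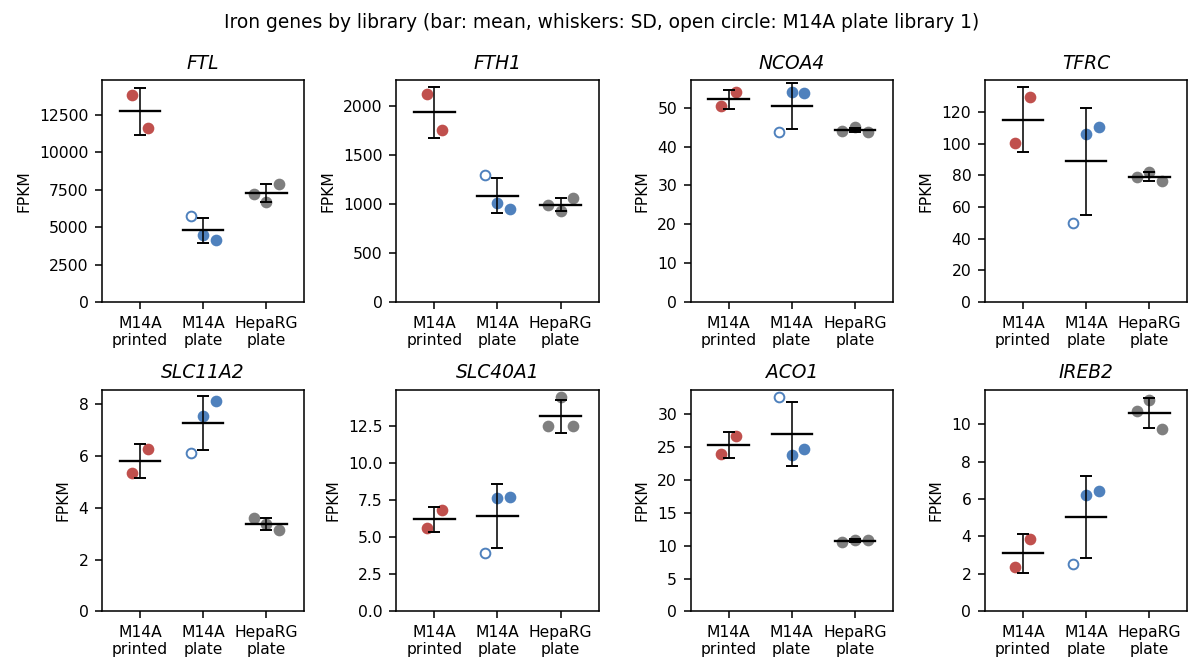
FPKM of the 8 tested iron genes in each library (points), with the group mean (bar) and SD (whiskers, n = 2 printed, n = 3 in each plate group); the open circle is M14A plate library 1. FTL and FTH1 are highest in the printed libraries, SLC40A1 and IREB2 are highest in HepaRG plate, and ACO1 and SLC11A2 are lowest in HepaRG plate.

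FTL (ENSG00000087086, GRCh38 chromosome 19, 48965301 to 48966878, plus strand) encodes the ferritin light chain, which helps iron crystallise inside the shell. It was among the most abundant messages, ranked 3 to 6 among protein-coding genes by FPKM. FTL stood at 13856 and 11644 FPKM in printed cells, at 5751, 4475 and 4152 FPKM in M14A plate, and at 7230, 6672 and 7880 FPKM in HepaRG plate. The 3 groups did not overlap, with printed cells highest and M14A plate lowest; of all genes, 26.9% lay wholly higher after printing and 27.4% wholly lower between the lines. FTL was higher in printed than in flask-grown M14A cells by a log2 fold change of 1.42 (SE 0.16, interval 1.05 to 1.79, adjusted p = 8.4e-04), which is 2.68-fold. It was lower in flask-grown M14A than in HepaRG cells by a log2 fold change of -0.61 (SE 0.14, interval -0.94 to -0.28, adjusted p = 0.013).

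As a share of all reads, which does not depend on the authors' scaling, FTL took 0.995 and 0.872% in printed cells, 0.489, 0.453 and 0.432% in M14A plate and 0.765, 0.703 and 0.815% in HepaRG plate. The order of the groups by share was the same as by FPKM. At equal totals the printed difference in FTL was 0.66, still called, and lay 1.17 above the median of all genes, and under quantile normalization it was 0.33. Between the lines FTL was no longer called without HepaRG plate library 1 (adjusted p = 0.056), without library 3 (adjusted p = 0.066) or with no filter on low genes (adjusted p = 0.27), at log2 fold changes of -0.61, -0.55 and -0.61.

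FTH1 (ENSG00000167996, chromosome 11, 61959718 to 61967660, minus strand) encodes the ferritin heavy chain, the ferroxidase that loads iron into the shell. FTH1 stood at 2119 and 1752 FPKM in printed cells, at 1289, 1011 and 950 FPKM in M14A plate, and at 984, 928 and 1062 FPKM in HepaRG plate. Both printed libraries lay above every other library, while the flask-grown groups overlapped. FTH1 was higher in printed than in flask-grown M14A cells by a log2 fold change of 0.84 (SE 0.16, interval 0.47 to 1.22, adjusted p = 0.0059), but its direction turned under quantile normalization, at -0.13. At equal totals the difference was 0.08, not called, and lay 0.59 above the median of all genes. The call was also lost without printed library 1 (0.71, adjusted p = 0.057), with only the 2 groups compared in the fit (adjusted p = 0.061) and with no filter (adjusted p = 0.057).

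Between the lines the log2 fold change of FTH1 was 0.12 and was not called (interval -0.22 to 0.45, adjusted p = 0.57), and its direction turned at equal totals (-0.09), at equal totals without mitochondrial genes (-0.01) and under quantile normalization (-0.13). The median of all genes was then -0.20, -0.14 and -0.06. Reads of FTH1 are harder to assign than those of FTL, since exons of BEST1 cover 62.4% of its exon bases, and BEST1 stood at 0.225 to 1.09 FPKM. Processed copies of FTH1 are also numerous: 25 annotated FTH1 pseudogenes, 20 of them with reads, held 1.56 to 1.87% as many reads as FTH1, led by FTH1P7 and FTH1P2. The 16 FTL pseudogenes held 0.0061 to 0.034% as many reads as FTL. Adding the pseudogene reads to their parents changed no call.

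NCOA4 (ENSG00000266412, chromosome 10, 46005088 to 46030714, minus strand) encodes the receptor that carries ferritin to the lysosome, where its iron is freed. NCOA4 stood at 50.5 and 53.9 FPKM in printed cells, at 43.7, 54.0 and 53.9 FPKM in M14A plate, and at 44.1, 45.0 and 43.8 FPKM in HepaRG plate. Its levels lay close together in all 8 libraries. Its log2 fold change was 0.05 after printing (interval -0.27 to 0.38, adjusted p = 0.80), turning to -0.70 at equal totals, to -0.52 at equal totals without mitochondrial genes and to -0.38 under quantile normalization. The median of all genes was then -0.51, -0.39 and 0.03. Between the lines the log2 fold change of NCOA4 was 0.18 (interval -0.11 to 0.47, adjusted p = 0.31). It turned to -0.02 at equal totals, when the median of all genes was -0.20. Without M14A plate library 1 the difference between the lines was 0.28 and was called (adjusted p = 0.012).

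**Figure D2:**
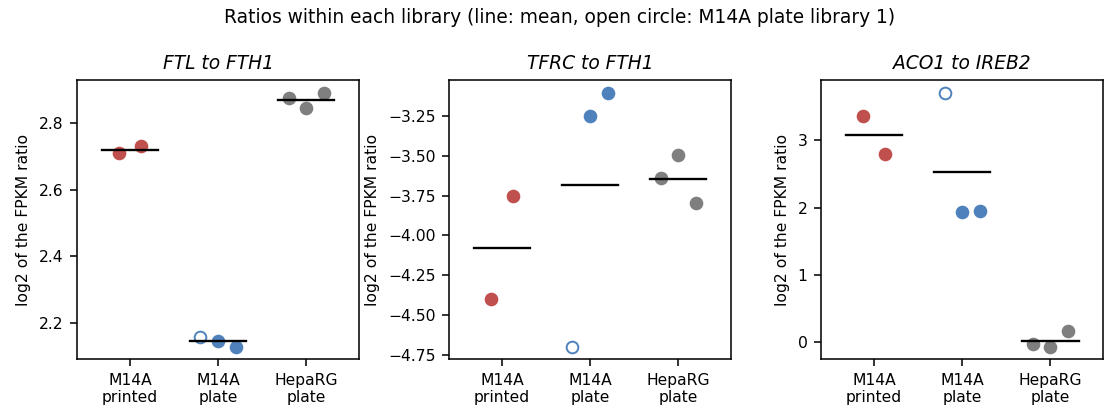
Log2 ratio of the FPKM of 2 genes within each library (points), with the group mean (line); the open circle is M14A plate library 1. The FTL to FTH1 ratio separates all 3 groups with little spread inside each, the TFRC to FTH1 ratio overlaps between groups, and the ACO1 to IREB2 ratio is lowest in HepaRG plate.

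The balance of light to heavy chain messages was compared by FPKM within each library, so that the scaling of the library drops out. FPKM divides by merged exon length, 878 bases for FTL and 2030 for FTH1. The median annotated transcript is 878 bases for FTL and 787 for FTH1. The size of the ratio depends on these lengths, so only its differences between groups are read. FTL to FTH1 was 6.54 and 6.65 in printed cells, 4.46, 4.43 and 4.37 in M14A plate, and 7.35, 7.19 and 7.42 in HepaRG plate. The groups were tightly separated, with M14A plate lowest. The log2 ratio was higher in printed than in flask-grown M14A cells by 0.58 (exact permutation test, two-sided, p = 0.1, adjusted p = 0.2 over 6 ratio tests). It was lower in flask-grown M14A than in HepaRG cells by a difference of -0.73 (exact permutation p = 0.1, adjusted p = 0.2). With 3 against 3 or 2 against 3 libraries, 0.1 is the smallest p this test can give. Leaving out any 1 library kept the differences between 0.57 and 0.59 after printing and between -0.74 and -0.72 between the lines.

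TFRC (ENSG00000072274, chromosome 3, 196027183 to 196082189, minus strand) encodes the receptor that takes up iron-loaded transferrin. TFRC stood at 101 and 130 FPKM in printed cells, at 49.6, 106 and 110 FPKM in M14A plate, and at 79.0, 82.2 and 76.4 FPKM in HepaRG plate. M14A plate library 1 was the lowest of all 8 libraries, and libraries 2 and 3 of its group lay above every HepaRG library. After printing the log2 fold change of TFRC was 0.45 and was not called (interval -0.28 to 1.17, adjusted p = 0.31), and its direction turned at equal totals (-0.31), at equal totals without mitochondrial genes (-0.13) and under quantile normalization (-0.16). The median of all genes was then -0.51, -0.39 and 0.03. TFRC thus lay above that median at both kinds of equal totals and below it under quantile normalization.

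Between the lines the log2 fold change of TFRC was 0.08 (interval -0.57 to 0.73, adjusted p = 0.86), and it turned to -0.12, -0.05 and -0.15 under the same scalings. The median of all genes was then -0.20, -0.14 and -0.06. Without M14A plate library 1, TFRC was called higher in M14A than in HepaRG cells at 0.45 (adjusted p = 0.016), and its printed difference was 0.08. Once each library's trend with gene length and GC content was removed, an alternative added after the data were seen, the printed difference was 0.52 and was called (adjusted p = 0.035). The proteins of TFRC and FTH1 are moved in opposite senses by the iron regulatory proteins. The FPKM ratio of TFRC to FTH1 was 0.0475 and 0.0740 in printed cells, 0.0385, 0.105 and 0.116 in M14A plate, and 0.0803, 0.0885 and 0.0719 in HepaRG plate. The groups overlapped in both comparisons (difference in log2 ratio -0.39, exact permutation p = 0.6, adjusted p = 0.72 after printing, and -0.04, exact permutation p = 1.0, adjusted p = 1.0 between the lines). Without M14A plate library 1 these differences were -0.90 and 0.47. TFRC (7887 bases) is longer than FTH1 (2030 bases), and a ratio within a library keeps any trend with gene length. After printing, the median log2 fold change was 0.22 in the shortest of 4 length bins of tested genes and -0.21 in the longest. This ratio was not recomputed with the trend removed.

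TFR2, a receptor by which hepatocytes read transferrin saturation, was close to absent. It had 0 and 0 reads in printed cells, 0, 0 and 1 in M14A plate, and 1, 2 and 0 in HepaRG plate. A count of 0 over the printed group allows a level of up to 0.02001 FPKM, by counting error only. TF, the plasma iron carrier made by hepatocytes, had 16 and 11 reads in printed cells, 136, 12 and 6 in M14A plate, and 3, 7 and 4 in HepaRG plate. Its highest level was 0.325 FPKM, in M14A plate library 1, and its other 7 libraries lay between 0.0061 and 0.0456 FPKM. These lines thus held little transferrin message in any group, and neither gene was tested.

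SLC11A2 (ENSG00000110911, chromosome 12, 50979401 to 51028566, minus strand) encodes the proton-coupled transporter DMT1 that moves ferrous iron out of endosomes. SLC11A2 stood at 5.36 and 6.27 FPKM in printed cells, at 6.11, 7.57 and 8.13 FPKM in M14A plate, and at 3.63, 3.38 and 3.16 FPKM in HepaRG plate. Every M14A library lay above every HepaRG library. SLC11A2 was higher in flask-grown M14A than in HepaRG cells by a log2 fold change of 0.91 (SE 0.13, interval 0.61 to 1.21, adjusted p = 0.0010). After printing the log2 fold change was -0.27 (interval -0.61 to 0.06, adjusted p = 0.18). It was called lower at -0.38 without M14A plate library 1 (adjusted p = 0.014) and at -0.92 at equal totals (adjusted p = 0.0078). The median of all genes at equal totals was -0.51. With each library's trend in gene length and GC content removed, an alternative added after the data were seen, SLC11A2 turned to 0.032.

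SLC40A1 (ENSG00000138449, chromosome 2, 189560579 to 189583758, minus strand) encodes ferroportin, the cell's iron exporter. SLC40A1 stood at 5.59 and 6.79 FPKM in printed cells, at 3.96, 7.65 and 7.71 FPKM in M14A plate, and at 12.4, 14.4 and 12.5 FPKM in HepaRG plate. Every HepaRG library lay above every M14A library. SLC40A1 was lower in flask-grown M14A than in HepaRG cells by a log2 fold change of -0.97 (SE 0.22, interval -1.47 to -0.47, adjusted p = 0.011), and at -0.70 without M14A plate library 1 (adjusted p = 0.0015). After printing its log2 fold change was -0.01 (interval -0.57 to 0.55, adjusted p = 0.99), turning to 0.01 with median-ratio scaling and to a value of 0.0024 under quantile normalization.

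**Figure D3:**
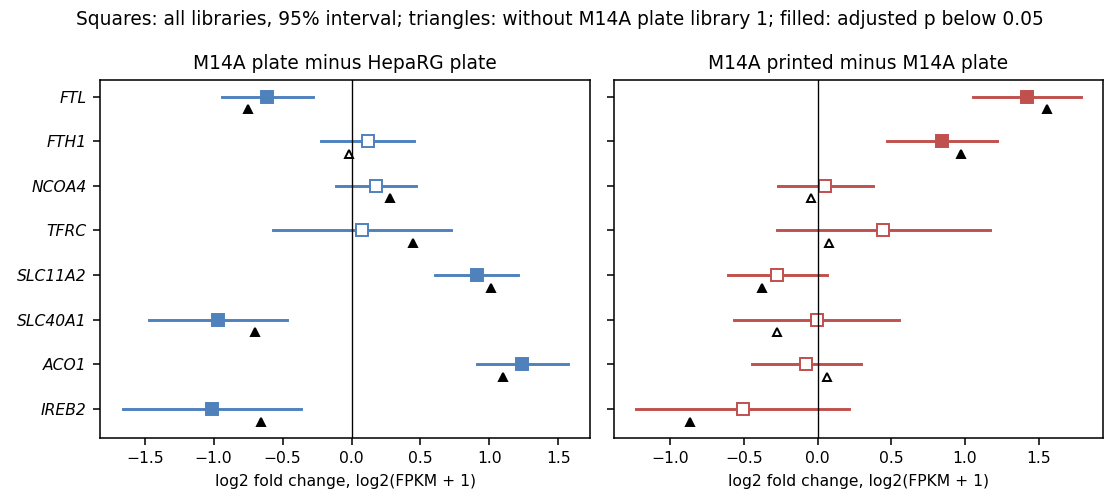
Log2 fold changes of the 8 tested iron genes on the log2(FPKM + 1) scale, with all libraries (squares, bars are 95% intervals) and without M14A plate library 1 (triangles); filled symbols have an adjusted p below 0.05. Left out of the fit, that library gives called values for TFRC and NCOA4 between the lines and for IREB2 and SLC11A2 after printing; the FTH1 square after printing, at 0.84, turns to -0.13 under quantile normalization.

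ACO1 (ENSG00000122729, chromosome 9, 32384603 to 32454769, plus strand) encodes IRP1, which is a cytosolic aconitase while it holds an iron-sulfur cluster and an RNA-binding protein without it. ACO1 stood at 24.0 and 26.8 FPKM in printed cells, at 32.7, 23.8 and 24.7 FPKM in M14A plate, and at 10.6, 10.8 and 10.9 FPKM in HepaRG plate. It was higher in flask-grown M14A than in HepaRG cells by a log2 fold change of 1.24 (SE 0.14, interval 0.91 to 1.57, adjusted p = 3.0e-04), which is 2.36-fold. After printing the log2 fold change was -0.08 (interval -0.45 to 0.29, adjusted p = 0.74). At equal totals it was -0.81 and called lower (adjusted p = 3.5e-04), which was 0.29 below the median of all genes. With length and GC trends removed and M14A plate library 1 left out, it was called higher instead, at 0.30 (adjusted p = 0.0024).

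IREB2 (ENSG00000136381, chromosome 15, 78437431 to 78501456, plus strand) encodes IRP2, whose protein is degraded when iron is plentiful. IREB2 stood at 2.34 and 3.85 FPKM in printed cells, at 2.51, 6.23 and 6.41 FPKM in M14A plate, and at 10.7, 11.3 and 9.74 FPKM in HepaRG plate. Every HepaRG library lay above every M14A library, and M14A plate library 1 lay with the printed libraries. IREB2 was lower in flask-grown M14A than in HepaRG cells by a log2 fold change of -1.01 (SE 0.28, interval -1.66 to -0.37, adjusted p = 0.027), and by -0.66 without M14A plate library 1 (adjusted p = 0.012). The call was lost without HepaRG plate library 1, 2 or 3 (adjusted p = 0.081, 0.087 and 0.063) and with no filter (adjusted p = 0.075). After printing the log2 fold change was -0.51 (interval -1.23 to 0.21, adjusted p = 0.25), and without M14A plate library 1 it was -0.86 and called lower (adjusted p = 0.0044).

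The 2 regulators thus stood at different ratios in the lines. ACO1 to IREB2 was 10.2 and 6.95 in printed cells, 13.0, 3.81 and 3.85 in M14A plate, and 0.985, 0.958 and 1.12 in HepaRG plate. In HepaRG cells the FPKM values were near parity, and in every M14A library ACO1 had the higher FPKM. The merged exon length behind FPKM is 7555 bases for ACO1 and 10806 for IREB2. Their median annotated transcripts are 3618 and 736.5 bases, so parity in FPKM need not mean parity in messages. The log2 ratio was higher in flask-grown M14A than in HepaRG cells by 2.50 (exact permutation p = 0.1, the smallest possible, adjusted p = 0.2), and by 1.91 without M14A plate library 1. Between printed and flask-grown M14A cells the groups overlapped (0.55, exact permutation p = 0.6, adjusted p = 0.72, and 1.14 without M14A plate library 1).

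Gene length moved with the printed difference. From the shortest to the longest of 4 equal bins of tested genes by summed exon length, the median log2 fold change after printing was 0.22, 0.17, -0.03 and -0.21, and between the lines it was 0.04, 0.03, -0.04 and -0.16. FTL (878 bases) and FTH1 (2030 bases) are in the shortest bin, while TFRC, ACO1, SLC11A2 and IREB2 (7555 to 10806 bases) are in the longest. With the trend in length and GC content removed, FTL was higher after printing by 1.19 (adjusted p = 6.7e-05) and FTH1 by 0.58 (adjusted p = 0.0016).

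**Figure D4:**
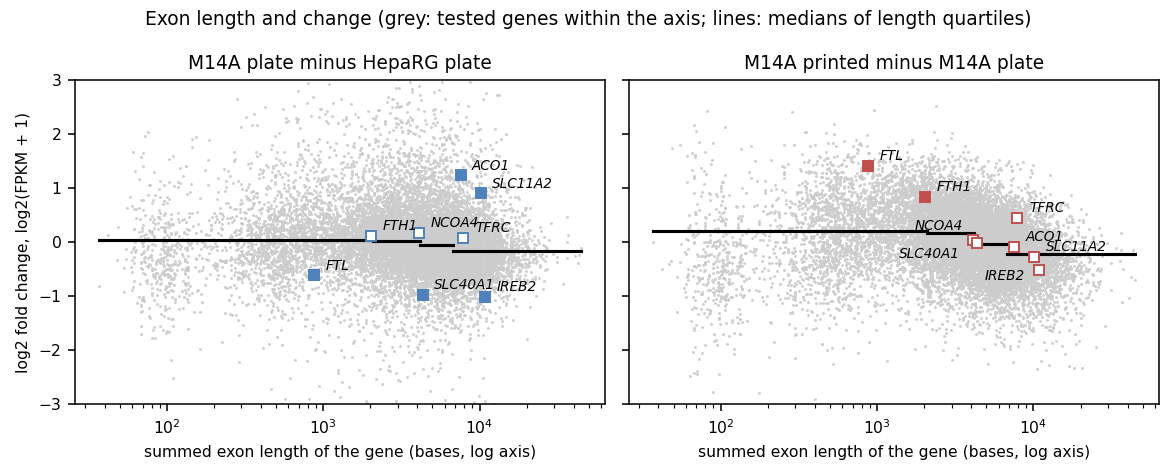
Log2 fold change on the log2(FPKM + 1) scale against summed exon length in bases (log axis) for all tested genes within the axis (grey), with the iron genes as squares (filled where the adjusted p is below 0.05) and the medians of the 4 length bins as lines. After printing, the medians run from 0.22 in the shortest to -0.21 in the longest bin, and FTL (1.42) and FTH1 (0.84; -0.13 under quantile normalization) lie above the median of theirs.

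The wider iron pathway was read from 7 lists holding 89 other genes, of which 75 were tested. Between the lines 11 were called higher and 7 lower (24.0% of those tested), with a median of 0.09. After printing 16 were called higher and 7 lower (30.7%), with a median of 0.14. With all libraries, these shares lay near or below those of all genes tested, at 30.9% and 33.2%. Without M14A plate library 1 the counts were 14 higher and 9 lower between the lines, and 31 higher and 17 lower after printing. All genes were then called at 42.7% between the lines (20.3% higher, 22.4% lower) and 55.1% after printing (28.2% higher, 26.9% lower). As a share of the 75, the genes called higher after printing then lay above that of all genes, which was not tested. At equal totals the counts were 10 higher and 11 lower between the lines and 1 higher and 36 lower after printing. The shares of all genes were then 14.4% higher and 23.4% lower, and 3.45% higher and 46.1% lower. Under quantile normalization the counts were 16 and 9, and 15 and 14. Quantile normalization called 36.4% of all genes between the lines (18.3% higher, 18.1% lower) and 32.6% after printing (16.8% higher, 15.8% lower).

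Of 4 tested genes of ferritin handling, 0 were called between the lines, or 1 lower without M14A plate library 1. PCBP1, a chaperone that delivers iron to ferritin, was at 98.0 and 88.9 FPKM in printed cells, at 139, 93.0 and 83.1 FPKM in M14A plate and at 91.7, 94.3 and 90.8 FPKM in HepaRG plate. Its log2 fold change between the lines was 0.15 (adjusted p = 0.57), turning to -0.05 at equal totals and to -0.07 under quantile normalization. The median of all genes was then -0.20 and -0.06. An antisense gene covers 52.2% of the exon bases of PCBP1. After printing 1 of 4 rose and 1 fell. The related chaperone PCBP2 was higher in printed cells (31.0 and 27.6 FPKM) than in M14A plate (19.1, 13.97 and 14.1 FPKM), by 0.87 (adjusted p = 0.0052), and other genes cover 32.7% of its exon bases. At equal totals the PCBP2 difference was 0.14 and was not called (adjusted p = 0.22). HERC2, the ubiquitin ligase that targets NCOA4, was lower in printed cells (2.64 and 2.997 FPKM) than in M14A plate (13.2, 9.50 and 8.04 FPKM), by -1.53 (adjusted p = 0.0012).

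Of 11 tested uptake genes, 2 were higher in the edited line (SLC39A8 and STEAP3) and 2 were lower (STEAP2 and CYBRD1), or 3 higher and 2 lower without M14A plate library 1. SLC39A8, a metal importer that can carry iron not bound to transferrin, stood at 24.6, 59.5 and 61.9 FPKM in M14A plate against 8.69, 8.54 and 8.49 FPKM in HepaRG plate (a log2 fold change of 2.27, SE 0.31, and adjusted p = 7.3e-04). STEAP2, a metalloreductase, stood at 0.158, 0.470 and 0.484 FPKM in M14A plate against 1.59, 1.36 and 1.41 FPKM in HepaRG plate (-0.85, adjusted p = 0.0017). Below 1 FPKM in every M14A library, it passed the filter through HepaRG plate alone, so its call carries no weight as a test. The size of its change depends on the setting, from -2.10 to -0.53 over the alternatives. STEAP3, the endosomal ferrireductase that works beside SLC11A2, was higher by 0.74 (adjusted p = 0.0063). After printing 2 of 11 rose (SNX3 and RAB11A) and 1 fell (LRP1), against 2 higher and 3 lower without M14A plate library 1, 0 higher and 4 lower at equal totals, and 0 higher and 3 lower under quantile normalization. All genes were called lower at shares of 26.9%, 46.1% and 15.8% under those settings, in the same order. SNX3, a sorting nexin known to recycle the transferrin receptor, stood at 113 and 118 FPKM in printed cells against 70.0, 62.7 and 64.7 FPKM in M14A plate (0.81, adjusted p = 0.0023), a call lost at equal totals (0.05, adjusted p = 0.67), at equal totals without mitochondrial genes (0.23, adjusted p = 0.10) and under quantile normalization (0.23, adjusted p = 0.16). LRP1, an endocytic receptor for heme bound to hemopexin, stood at 14.4 and 10.8 FPKM in printed cells against 39.0, 33.0 and 27.98 FPKM in M14A plate (-1.34, adjusted p = 0.0016).

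Of 12 tested genes of export and hepcidin control, 3 were higher (CP, BMP2 and HFE) and 1 lower (SMAD4) in the edited line. CP, the plasma ferroxidase ceruloplasmin that works with ferroportin, stood at 7.71, 18.8 and 19.0 FPKM in M14A plate against 2.74, 3.39 and 3.02 FPKM in HepaRG plate (a log2 fold change of 1.90, SE 0.31, and adjusted p = 0.0021). Exons of HPS3 cover 19.4% of its exon bases. SMAD4, the shared signal transducer of bone morphogenetic proteins, stood at 1.24, 2.24 and 2.39 FPKM against 3.49, 3.49 and 3.50 FPKM (-0.63, adjusted p = 0.018), and lost its call without any 1 of the HepaRG plate libraries (adjusted p = 0.064 each). After printing 0 rose and 2 fell, against 5 lower without M14A plate library 1, 8 lower at equal totals and 4 lower under quantile normalization, each with 0 higher. The shares of all genes called lower were 26.9%, 46.1% and 15.8% in these settings, so part of the counts follows the whole table. SMAD7, an inhibitor of that signal, stood at 4.05 and 3.87 FPKM in printed cells against 10.9, 10.1 and 9.37 FPKM in M14A plate (-1.17, adjusted p = 6.8e-04). NEO1, a receptor that binds hemojuvelin, was lower by -0.53 (adjusted p = 0.038), a call lost under 12 of its 24 alternatives.

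The hormone itself was near its floor. HAMP, which encodes hepcidin, stood at 0.0248 and 0 FPKM in printed cells, at 0.0624, 0 and 0.0169 FPKM in M14A plate and at 0.159, 0.275 and 0.0793 FPKM in HepaRG plate. The hepcidin regulators HJV, BMP6 and TMPRSS6 also stayed below the level needed for testing, as did HEPH and FGL1.

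Of 25 tested genes of iron-sulfur cluster assembly, 4 were higher (FDXR, FDX1, CIAO2B and ISCU) and 0 lower in the edited line. FDXR, the mitochondrial ferredoxin reductase, stood at 91.7, 49.7 and 44.3 FPKM in M14A plate against 6.83, 6.08 and 7.13 FPKM in HepaRG plate (a log2 fold change of 2.96, SE 0.27, and adjusted p = 6.5e-05). FDX1, a ferredoxin that it reduces, stood at 28.6, 20.9 and 20.1 FPKM against 14.3, 14.7 and 16.1 FPKM (log2 fold change 0.58, adjusted p = 0.020), not called once HepaRG plate library 1, 2 or 3 was left out (adjusted p = 0.086, 0.078 and 0.054).

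After printing 8 of the 25 rose (CIAO2B, BOLA3, HSCB, NFU1, LYRM4, ISCA1, GLRX5 and ISCU) and 2 fell (NDOR1 and SLC25A37). CIAO2B, which hands clusters to cytosolic proteins, stood at 267 and 224 FPKM in printed cells against 118, 83.5 and 84.6 FPKM in M14A plate (1.37, SE 0.18, adjusted p = 0.0013). NDOR1, which feeds electrons to cytosolic assembly, stood at 10.6 and 5.002 FPKM against 21.6, 19.2 and 17.02 FPKM (-1.28, SE 0.25, adjusted p = 0.0060). The median of the list after printing was 0.39, against 0.01 over all genes tested. Without M14A plate library 1 the list had 17 higher and 2 lower, when 55.1% of all genes were called. At equal totals it had 1 higher and 10 lower with a median of -0.28, when the median of all genes was -0.51.

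Of 9 tested genes of heme synthesis, 2 were higher (ALAS1 and CPOX) and 1 lower (FECH) in the edited line. FECH, the ferrochelatase that inserts iron into heme, stood at 3.89, 3.25 and 3.36 FPKM in M14A plate against 8.71, 9.99 and 9.76 FPKM in HepaRG plate (-1.22, SE 0.11, adjusted p = 8.1e-05). ALAS1, the first and rate-limiting enzyme of the path in liver, stood at 68.0, 39.3 and 36.7 FPKM in M14A plate against 23.5, 24.6 and 25.3 FPKM in HepaRG plate (0.89, adjusted p = 0.015), not called once HepaRG plate library 1 or 2 was left out (adjusted p = 0.060 and 0.053). After printing 2 of 9 were higher and 0 lower, against 5 higher and 1 lower without M14A plate library 1, 0 higher and 5 lower at equal totals, and 3 higher and 1 lower under quantile normalization. Over all genes, 28.2% were called higher without that library, 46.1% lower at equal totals and 16.8% higher under quantile normalization. UROS and UROD, consecutive enzymes of the path, were higher by 0.85 and 0.80 (adjusted p = 0.0044 and 0.011), and at equal totals both lost their calls. UROD also lost its call without printed library 1 (adjusted p = 0.084) and with only the 2 groups in the fit (adjusted p = 0.067).

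Of 9 tested genes of heme and hemoglobin disposal, 0 were higher and 1 lower (HMOX1) in the edited line, against 2 higher and 2 lower both without M14A plate library 1 and under quantile normalization, and 0 higher and 3 lower at equal totals. After printing 2 were higher (HMOX1 and BLVRB) and 0 lower, against 4 higher and 2 lower without that library and 0 higher and 4 lower at equal totals. Among all genes at equal totals, 23.4% were called lower between the lines and 46.1% after printing. Without that library 42.7% and 55.1% were called in either direction. HMOX1, the inducible heme oxygenase that frees iron from heme, stood at 18.7 and 15.4 FPKM in printed cells, at 11.7, 7.28 and 6.95 FPKM in M14A plate and at 41.9, 37.7 and 44.8 FPKM in HepaRG plate. The groups did not overlap. HMOX1 was lower in flask-grown M14A than in HepaRG cells by -2.17 (SE 0.19, adjusted p = 6.4e-05). It was higher in printed than in flask-grown M14A cells by 0.93 (SE 0.22, adjusted p = 0.012), a call lost without printed library 1 (adjusted p = 0.091), with only the 2 groups in the fit (adjusted p = 0.065) and at equal totals (0.23, adjusted p = 0.20). BLVRB, a biliverdin reductase, stood at 205 and 170 FPKM in printed cells against 115, 84.2 and 71.3 FPKM in M14A plate (1.07, adjusted p = 0.0055), a call lost without printed library 1 (adjusted p = 0.051) and at equal totals (adjusted p = 0.056).

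Of 5 other tested messages known for iron-responsive elements, 0 were higher and 2 lower in the edited line, PFN2 among them. PFN2, an actin-binding profilin, stood at 53.4 and 52.6 FPKM in printed cells, at 32.3, 35.0 and 32.7 FPKM in M14A plate and at 50.9, 49.0 and 53.8 FPKM in HepaRG plate. PFN2 was lower between the lines by -0.60 (adjusted p = 0.0038) and higher after printing by 0.65 (adjusted p = 0.0054). The printed difference turned to -0.09 at equal totals, when the median of all genes was -0.51. The printed call of PFN2 was also lost at equal totals without mitochondrial genes (0.08, adjusted p = 0.63) and under quantile normalization (0.24, adjusted p = 0.22). After printing 1 of the 5 was called higher and 1 lower, against 2 higher and 3 lower without M14A plate library 1, 0 higher and 2 lower at equal totals, and 0 higher and 1 lower under quantile normalization. Shares of all genes called lower were then 26.9%, 46.1% and 15.8%. EPAS1, the hypoxia factor HIF-2α, was lower after printing (16.6 and 20.3 FPKM in printed cells, 38.4, 28.5 and 25.3 FPKM in M14A plate) by -0.69 (adjusted p = 0.023), a call lost without either printed library (adjusted p = 0.15 and 0.051), with no filter (adjusted p = 0.058) and with only the 2 groups in the fit (adjusted p = 0.10).

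**Figure D5:**
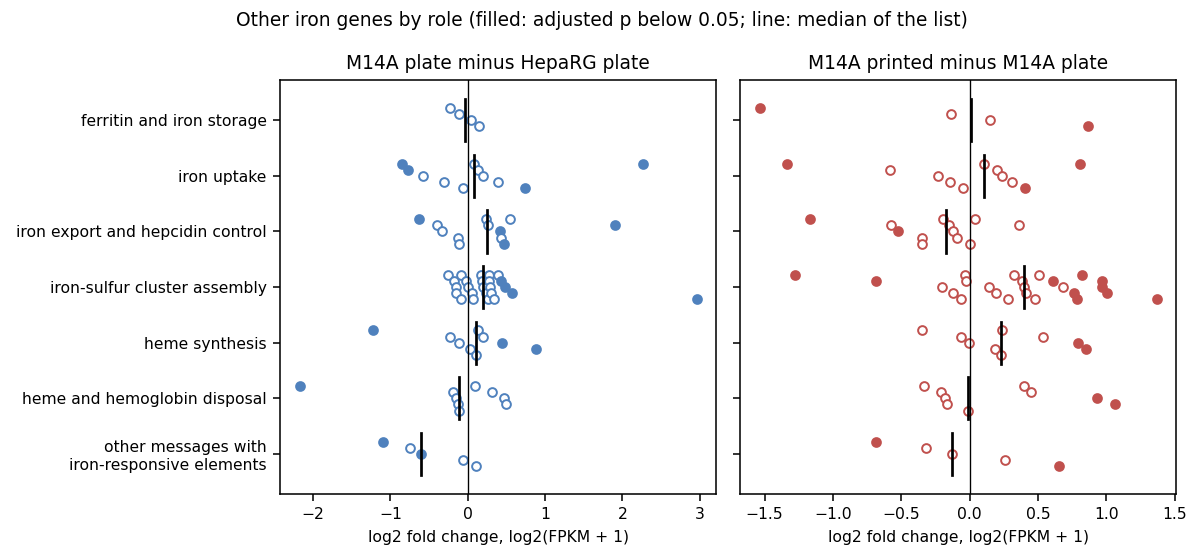
Log2 fold changes on the log2(FPKM + 1) scale of the 75 tested pathway genes other than the 10 iron genes, by role (points, filled where the adjusted p is below 0.05), with the median of each list (line). Between the lines FDXR (2.96) and HMOX1 (-2.17) lie furthest out. After printing 8 of 25 iron-sulfur cluster genes are called higher, against 17.7% of all genes, or 1 of 25 at equal totals, against 3.45%.

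Genes whose pattern over the 8 libraries was most like that of FTL, FTH1 and TFRC were found by Pearson correlation of log2(FPKM + 1) over 11298 other tested protein-coding genes, as a description. The 3 nearest to FTL were PPIH (0.997), HAX1 (0.997) and RPA3 (0.994). The 3 nearest to FTH1 were NDUFAB1 (0.998), C19orf53 (0.997) and APRT (0.997). The 3 nearest to TFRC were ADD3 (0.998), SCARB2 (0.997) and SC5D (0.994). Part of what such points share is M14A plate library 1, in which ADD3 stood at 3.25 FPKM against 8.74 and 9.94 FPKM in libraries 2 and 3, as TFRC stood low there. The correlations use FPKM as deposited, whose totals differ between libraries, so the scaling of the libraries also enters them. Its part was not tested.

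Markers of other cells were read beside these results, and their part in them was not tested. All marker sums and calls use FPKM as deposited and were not recomputed at equal totals. FPKM totals were 514152 and 499995 in printed cells and 350931, 278335 and 272290 in M14A plate. In HepaRG plate they were 257553, 254141 and 266419. Of the 7 hepatocyte markers 6 were tested, and 5 were higher in flask-grown M14A than in HepaRG cells and 4 higher after printing, with 0 lower in either. Over all genes, 16.1% and 17.7% were called higher. In HepaRG plate most of the hepatocyte sum came from KRT8 (101, 97.3 and 111 FPKM) and KRT18 (28.8, 26.3 and 30.1 FPKM). TTR was not tested and reached at most 0.283 FPKM. The 8 leukocyte and macrophage markers summed to 12.9 to 14.2 FPKM in printed cells, 7.66 to 11.9 FPKM in M14A plate and 3.07 to 3.78 FPKM in HepaRG plate, and PTPRC, CD68 and CD163 were below 0.1 FPKM in every library. Other genes cover 85.8% of the exon bases of CD68, so its reads are hard to assign. The 6 erythroid markers summed to 0.787 to 1.14 FPKM in printed cells, 0.605 to 1.35 FPKM in M14A plate and 1.99 to 2.24 FPKM in HepaRG plate, with HBA1, HBA2 and EPB42 below 0.1 FPKM in every library. The 5 endothelial markers summed to at most 2.35 FPKM, with CDH5 and VWF below 0.1 FPKM. The 7 stellate cell and fibroblast markers summed to 63.6 to 64.0 FPKM in printed cells, 31.7 to 45.7 FPKM in M14A plate and 9.46 to 9.68 FPKM in HepaRG plate, with COL1A2 and PDGFRA below 0.1 FPKM. Of the 5 tested, 2 were called higher and 3 lower between the lines, and 1 higher and 0 lower after printing. Those lower (COL1A1, PDGFRB and LRAT) passed the filter through HepaRG plate alone, so their calls carry no weight as a test. In such bulk samples, fewer cells of a type and less RNA per cell cannot be told apart.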

How the data were processed

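RNA of 8 cell line samples was sequenced in 3 groups. Per the labels' protocols, 1 µg of RNA entered each library, prepared with a NEBNext Ultra kit. Per the submitters' processing notes, the tools included HISAT2 (version 2.0.5) and featureCounts (version 1.5.0-p3). The sources used here do not give poly(A) selection, read length, strand or counting options. The authors deposited FPKM for every gene and library beside gene positions and lengths. No build is stated, but all 58735 positions and merged exon lengths equal those of GENCODE 29 on GRCh38. Deposited FPKM times length fell on whole multiples of 1 read for 99.92 to 99.98% of values (tolerance 0.01), and these were taken as reads. FPKM totals differ between libraries (254141 to 514152), and columns lacking a sample numbered 0.

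Log2(FPKM + 1) was fitted for 14349 genes (11306 protein-coding) reaching 1 FPKM in 2 or more libraries, using limma version 3.58.1 under R version 4.3.3. The functions lmFit, contrasts.fit and eBayes (with its trend option) were applied to the 3 groups together, leaving 5 residual degrees of freedom. The 2 printed libraries take their spread from all groups. Tests were two-sided, with Benjamini-Hochberg adjustment over all genes fitted. Log2 ratios within libraries were compared by exact permutation. Recovered reads of replicate pairs differed, with chi-square values of 2.69 to 69.3 per degree of freedom, so none was treated as a duplicate. The 10 genes, the lists and the tests were chosen with earlier results of these data known. From each list and comparison up to 2 called genes of largest change were named, or the most abundant where none was called, and some items are not reported here. STEAP3, HAMP and genes listed by name only were chosen after their values were seen. The procedure was tested on simulated data. Alternatives changed the pseudocount (0.1, 0.01), the filter (none, 5 FPKM), the scaling (median-ratio, quantile, equal totals), the groups fitted, the eBayes trend, the model (voom on recovered reads, a replicate block), the gene set (protein-coding), the threshold (0.01) and the libraries, each left out once. Removal of length and GC trends by splines, with and without M14A plate library 1, was added after the data were seen. Floors cover counting error only. Sequences were read from GENCODE 29 transcripts.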

Additional observations from a re-analysis of the deposited data

How the results depend on the processing

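Of the counts and ratio differences recomputed under the alternatives, 28 counts moved by more than 1.5 times, 2 ratio differences turned, and 159 stayed within 1.5 times (counts) or kept their direction (ratio differences). Ratio differences were judged by direction alone: after printing, TFRC to FTH1 and ACO1 to IREB2 ran from -0.90 to -0.07 and from 0.25 to 1.14 over left-out libraries. Of the fold changes of single genes, 896 kept direction and call, 60 lost and 14 gained a call, and 40 turned. The cause was not tested beyond what the settings themselves change (genes, libraries or scaling). Calls of iron genes between the lines (2 higher, 3 lower with all libraries) became 1 lower with no filter and 0 lower at an adjusted p below 0.01. After printing (2 higher, 0 lower), 1 was higher with no filter, at equal totals, under quantile normalization and with only the groups compared, 3 were lower at equal totals and 2 were lower at equal totals without mitochondrial genes. With length and GC trends removed and M14A plate library 1 left out, 4 were higher and 3 lower between the lines, and 4 higher and 2 lower after printing. In that setting 7342 of all 14337 genes fitted were called between the lines, 46.0% of them higher. After printing 8276 of the 14337 were called, 54.0% of them higher. Genes called between the lines (4429) were 2341 at 5 FPKM, 7342 with trends removed and that library left out, and 2544 at the stricter threshold. After printing (4770) they were 2016 with only the groups compared, 8276 with trends removed and that library left out, and 2368 at the stricter threshold. By voom on recovered reads 4575 and 4870 were called. Leaving out 1 library at a time gave 2819 to 6132 genes called between the lines and 2580 to 7911 after printing, the highest in each without M14A plate library 1. It gave 2 to 4 iron genes higher and 1 to 3 lower between the lines, and 1 to 2 higher and 0 to 2 lower after printing. The TFRC to FTH1 difference between the lines ran from -0.33 to 0.47, turned without M14A plate library 1 (0.47) or HepaRG plate library 2 (0.03).

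Turned fold changes between the lines were, for FTH1, -0.086 at equal totals, -0.014 without mitochondrial genes, -0.13 by quantiles, -0.13 with trends removed and -0.15 without M14A plate library 1 as well, with -0.015 to 0.21 over left-out libraries. NCOA4 gave -0.018 at equal totals. TFRC gave -0.12, -0.052 and -0.15 under the same 3 scalings, and -0.12 to 0.45 over left-out libraries. PCBP1 gave -0.051 at equal totals, -0.069 by quantiles, -0.096 with trends removed and -0.20 without M14A plate library 1 as well, and -0.070 to 0.30 over left-out libraries. After printing, FTH1 gave -0.13 by quantiles. NCOA4 gave -0.70, -0.52 and -0.38 under the 3 scalings, -0.024 with trends removed and -0.095 without that library as well, and -0.047 to 0.10 over left-out libraries. TFRC gave -0.31, -0.13 and -0.16 under the scalings, and SLC11A2 0.032 with trends removed. SLC40A1 gave 0.00088 at a pseudocount of 0.01, 0.0080 with median-ratio scaling, 0.0024 by quantiles, 0.018 by voom, 0.046 with the replicate block, and -0.28 to 0.13 over left-out libraries. ACO1 gave 0.14 with trends removed and 0.30 (called higher) without that library as well, and -0.16 to 0.062 over left-out libraries. PFN2 gave -0.093 at equal totals. At equal totals the median of all genes was itself -0.20 between the lines and -0.51 after printing.

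Replicate numbers are shared between groups, but deviations of same-numbered libraries correlated at -0.07, 0.08 and -0.16 between the flask-grown groups and at 0.49 and 0.36 between printed and flask-grown M14A, where only 2 pairs exist and printed library 2 correlated at 0.43 with a library of another number. The labels tie no number to a shared culture or day, so the numbers were not taken to pair the libraries. With the replicate number as a block, 4419 genes were called between the lines and 4380 after printing. Iron genes called were again 2 higher and 3 lower, and 2 higher and 0 lower. The ratio differences between the lines were as without the block, and after printing they were 0.57 for FTL to FTH1, -0.10 for TFRC to FTH1 and 0.26 for ACO1 to IREB2. A planned TFR2 to TFRC ratio was not computed, since TFR2 had 0 to 2 reads per library. Depth leaves TFR2 and TF without a usable comparison.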
